A study of Mus musculus with 29 samples.

Results

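DNA methylation was examined across 7 genes that mark the alveolar type I (AT1) cell, namely Ager, Hopx, Aqp5, Pdpn, Rtkn2, Cav1 and Cav2, in whole-genome enzymatic methyl-sequencing (WGMS) of mouse lung. The members were the table's windows that carry the name of 1 of these genes. They numbered 51 of 260686 windows, with 26 for Rtkn2, 11 for Pdpn, 9 for Hopx, 4 for Aqp5 and 1 for Ager. No window was named for Cav1 or Cav2. Their loci lie in windows that the table names for Gm15581, a non-coding gene on the opposite strand, and are described apart from the 51 members. All 51 windows had a value in all 29 libraries and were tested.

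AT1 cells are the thin, flat cells that line most of the alveolar surface and across which gas is exchanged. Hopx, Ager, Aqp5 and Pdpn are used to recognise them in mouse lung, and caveolins are abundant in them and in endothelial cells. In mammalian DNA most CpG sites are methylated, CpG-dense promoters are usually left unmethylated, and sites bound by regulators in a given cell type are often less methylated in that cell type. A methylation level is not a transcript level, so the labelled cell type of these genes could not be checked with these data.

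The libraries came from Balb/c female offspring aged 13 weeks in 4 groups, and the tissue is labelled Lung (RML). Sham (n = 7) were offspring of dams given intranasal saline before mating, through gestation and until weaning, and PM (n = 7) were offspring of dams given fine particulate matter in saline over the same period. Sham-OVA (n = 7) and PM-OVA (n = 8) were the matching offspring that were sensitised to ovalbumin (OVA) with alum and then challenged with OVA aerosol, whereas controls inhaled nebulised saline. The litter of each animal is not given in the labels, so animals of a group may share a dam. The lung is a mixture of cells, and a change in the share of a cell type cannot be told apart from a change of methylation within it.

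Each value is the percent methylation of a window of about 100 CpG cytosines, counted over both strands. The paper describes high coverage of the genome in each replicate. No counts or coverage accompany the percentages, so the depth of each window is unknown. Mean methylation over all windows was between 67.8% and 70.2% in the 29 libraries. Sham replicate 1 stood apart from its female label, with values in 1224 of 1230 windows on the Y chromosome against 29 to 46 in the other 28 libraries. All 51 windows are autosomal, and the counts and windows on which the results turn are also given without that library. Differences are given in percentage points. They were tested with limma on a log2 ratio of methylated to unmethylated percent, and p-values were adjusted over all 259167 windows tested. A differentially methylated region (DMR) had an adjusted p below 0.05 and a difference of at least 10 points.

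Stretches of reference sequence show what lay under the windows on which the results turn. Each is the most CpG-rich run of at most 200 bases in its window that has no exon sequence outside coding sequence. They are read 5′ to 3′ on the strand of the gene in GRCm38 with CpG sites in capitals.
Hopx, first intron beside the distal gene start, chr5:77114460-77114659, minus strand: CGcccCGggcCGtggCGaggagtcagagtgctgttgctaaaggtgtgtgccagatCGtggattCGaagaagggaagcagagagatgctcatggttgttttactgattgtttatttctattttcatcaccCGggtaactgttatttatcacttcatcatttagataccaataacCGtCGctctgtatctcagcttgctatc
Hopx, coding start of the CpG-dense inner exon, chr5:77094895-77095009, minus strand: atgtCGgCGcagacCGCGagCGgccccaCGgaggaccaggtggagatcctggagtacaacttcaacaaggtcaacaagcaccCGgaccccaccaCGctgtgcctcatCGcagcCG
Rtkn2, intron in the window that lost methylation, chr10:68036060-68036259, plus strand: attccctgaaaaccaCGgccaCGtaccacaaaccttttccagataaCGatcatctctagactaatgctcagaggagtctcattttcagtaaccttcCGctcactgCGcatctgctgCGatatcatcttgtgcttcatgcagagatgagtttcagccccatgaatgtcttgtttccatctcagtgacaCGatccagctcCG
Aqp5, upstream of the gene start, chr15:99590581-99590780, plus strand: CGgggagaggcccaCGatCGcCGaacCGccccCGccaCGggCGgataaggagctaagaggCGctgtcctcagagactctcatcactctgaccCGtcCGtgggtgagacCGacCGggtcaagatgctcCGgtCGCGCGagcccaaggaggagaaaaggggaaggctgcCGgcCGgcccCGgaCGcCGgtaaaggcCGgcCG
Cav1, intron beyond the gene start, chr6:17307437-17307636, plus strand: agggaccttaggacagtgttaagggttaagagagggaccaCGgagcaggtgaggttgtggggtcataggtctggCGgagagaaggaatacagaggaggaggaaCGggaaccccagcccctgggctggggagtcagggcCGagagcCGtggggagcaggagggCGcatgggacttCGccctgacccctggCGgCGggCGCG
The Aqp5 run held 24 CpG sites in 200 bases and the Rtkn2 run 8. The Hopx runs held 9 CpG sites in 200 bases at the distal start and 10 in 115 bases at the inner exon.

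OVA challenge was followed by more gains than losses of methylation at these genes, against a genome in which losses were the more frequent. In offspring of Sham dams 17 of the 51 windows (33.3%) rose and 3 (5.88%) fell at an adjusted p below 0.05 (limma), while 13.3% of all windows rose and 22.3% fell. In offspring of PM dams 13 windows (25.5%) rose and 4 (7.84%) fell, while 9.26% of all windows rose and 34.8% fell. All windows are not a matched background, as the members were shorter, more CpG-rich and less methylated, and 26 of the 51 lie in Rtkn2. The median difference was 1.13 points over the 51 windows against -0.41 over all windows in Sham-OVA minus Sham, and 0.71 against -1.03 points in PM-OVA minus PM. The latter member median was 0.394 points without PM replicate 3 and 1.69 points with each library centred. OVA moved the median of all windows by -0.40 points in offspring of Sham dams and by -0.98 points in those of PM dams, and with each library centred on that shift 24 member windows rose and 3 fell in each comparison. The same centring gave 18.3% of all windows higher and 17.8% lower in Sham, and 18.9% higher and 18.7% lower in PM. Without Sham replicate 1, 17 windows rose and 3 fell in Sham offspring, and without PM replicate 2 only 7 rose and 4 fell in PM offspring. At the study's stricter threshold of 1e-06 for the adjusted p, 1 window rose and 1 fell in Sham offspring and 0 rose and 2 fell in PM offspring.

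The 2 OVA comparisons share no library, and 40 of the 51 windows (78.4%) differed in the same direction in both, near the 81.8% of all windows. In all, 9 windows (17.6%) rose in both, against 7.57% of all windows, and 3 (5.88%) fell in both, against 19.7%. A further 8 (15.7%, against 8.28%) passed in Sham offspring alone and 5 (9.8%, against 16.8%) in PM offspring alone, and 26 passed in neither. No window passed in opposite directions. Passing in 1 comparison alone does not show that the comparisons differ, and none of the 51 windows passed the test of that difference (interaction).

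**Figure D1:**
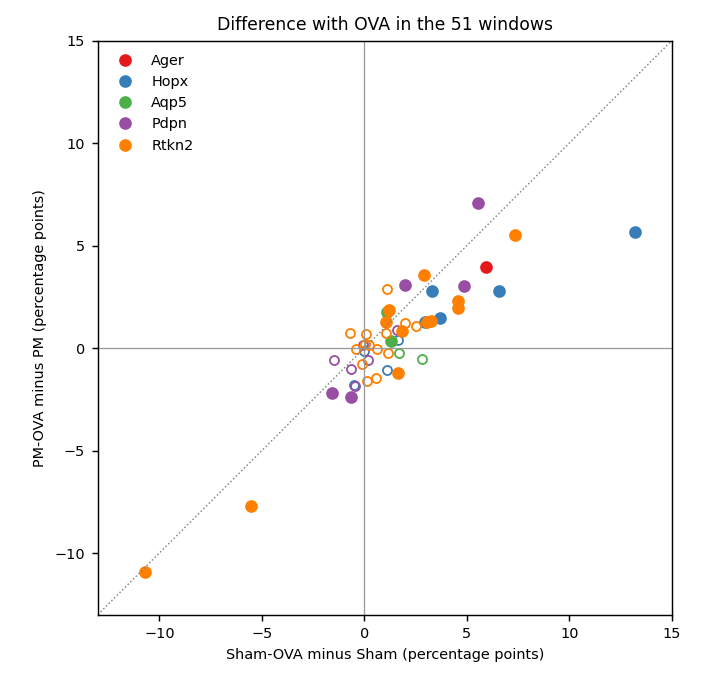
Each point is 1 of the 51 windows, placed by its difference in methylation with OVA in offspring of Sham dams (x axis, percentage points) and of PM dams (y axis, percentage points), with colours for the gene, filled points for windows that passed in at least 1 comparison and a dotted line at equal differences. Most points lie near that line, the 2 Rtkn2 losses lie at the lower left, and the Hopx window at 13.2 points in Sham offspring lies below the line at 5.65 points in PM offspring.

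Few of the windows were DMRs. In Sham offspring 1 member window was a DMR with higher methylation, against 0.479% of all windows, and 1 a DMR with lower methylation, against 0.296%. In PM offspring there was none with higher methylation, against 0.263%, and 1 with lower methylation, against 0.321%. The ranges of the libraries did not overlap for 3 windows that were higher (3.15% of all windows) and 2 that were lower (5.43%) in Sham-OVA than in Sham. For PM-OVA and PM the corresponding counts were 1 higher (1.65%) and 3 lower (10.3%). These DMR and range counts rest on 1 to 3 windows each, and no share of the members is read from them.

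Hopx, a homeodomain-only protein that acts as a transcriptional cofactor, gained methylation at its distal gene start. The window chr5:77112657-77115567 covers that start and holds 446 bases of upstream sequence, 275 bases of untranslated exon and 2190 bases of intron. Its methylation in Sham was 42.6% at the lowest, 45.2% at the median and 46.5% at the highest library. In Sham-OVA the lowest, median and highest values were 51.0%, 58.8% and 62.0%. All Sham-OVA libraries therefore lay above all Sham libraries, and the mean rose from 44.8% ± 1.20 (SD, n = 7) to 58.0% ± 3.92 (SD, n = 7). The difference was 13.2 points (95% interval 10.1 to 16.3, limma adjusted p = 2.66e-07), and 13.3 points without Sham replicate 1.

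In PM offspring the same Hopx window read 46.0%, 49.8% and 54.6% in PM at the lowest, median and highest library. The PM-OVA values were 51.6%, 54.3% and 59.0%, so these groups overlapped. The mean rose from 49.3% ± 2.94 (SD, n = 7) to 54.9% ± 3.07 (SD, n = 8), a difference of 5.65 points (95% interval 2.66 to 8.64, limma adjusted p = 0.00311). The OVA difference was thus 7.57 points smaller in PM than in Sham offspring (95% interval of the interaction -11.9 to -3.27). This interaction had an unadjusted p of 0.00133 and a limma adjusted p of 0.551, and did not pass. Without OVA the window was 4.48 points higher in PM than in Sham (unadjusted p = 0.00696, limma adjusted p = 0.813), which did not pass either.

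The window directly upstream, chr5:77115568-77119777, holds 1554 bases of the Hopx promoter but is named for Gm15831 and is no member. Its mean was 63.3% ± 2.02 in Sham and 63.4% ± 2.28 in Sham-OVA (limma adjusted p = 0.961), and it was 67.1% ± 1.28 in PM and 62.9% ± 1.47 in PM-OVA (SD), where it fell by 4.16 points (limma adjusted p = 0.000757) with no overlap. PM libraries, at 65.6% to 68.9%, also lay above Sham libraries, at 60.4% to 65.4%, a difference of 3.74 points (unadjusted p = 0.000572, limma adjusted p = 0.72) that did not pass. Without Sham replicate 1 that difference was 3.36 points (limma unadjusted p = 0.00208). How often PM and Sham ranges are apart over all windows was not counted. This upstream window was described after its values were seen.

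A second feature of Hopx was a CpG-dense window about 20 kb inside the gene, chr5:77094895-77095498, which covers 2 annotated transcript starts and the exon whose coding start is shown above. It holds 8.28 CpG sites per 100 bases, and its mean methylation was 0.37% ± 0.35 in Sham, 0.36% ± 0.17 in Sham-OVA, 0.40% ± 0.28 in PM and 0.28% ± 0.27 in PM-OVA (SD, n = 7, 7, 7 and 8). The differences with OVA were -0.00087 points (95% interval -0.567 to 0.565) in Sham and -0.12 points (95% interval -0.666 to 0.43) in PM offspring. No difference in this window passed the test. On the percentages as deposited, the intervals exclude a change of 1 point in either comparison. With each library centred the difference in PM offspring was 0.862 points.

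Over the 9 Hopx windows 5 rose and none fell in Sham offspring, and 3 rose and none fell in PM offspring (limma adjusted p below 0.05), where 13.3% and 9.26% of all windows rose and 22.3% and 34.8% fell. The window over the 3′ end of the gene, chr5:77084438-77087972, is singled out after its values were seen. There Sham libraries lay between 64.5% and 71.6% and Sham-OVA libraries between 73.6% and 76.4%, with no overlap. The rise was 6.57 points in Sham (limma adjusted p = 2.31e-05), or 5.92 without Sham replicate 1, and 2.79 points in PM offspring (limma adjusted p = 0.0288). The gains of Hopx lay towards both ends of the gene, and the windows of the middle of its first intron did not pass in either comparison. The mean of all 9 windows was 53.0% ± 0.764 in Sham, 56.6% ± 1.10 in Sham-OVA, 54.3% ± 0.472 in PM and 55.6% ± 0.881 in PM-OVA (SD).

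**Figure D2:**
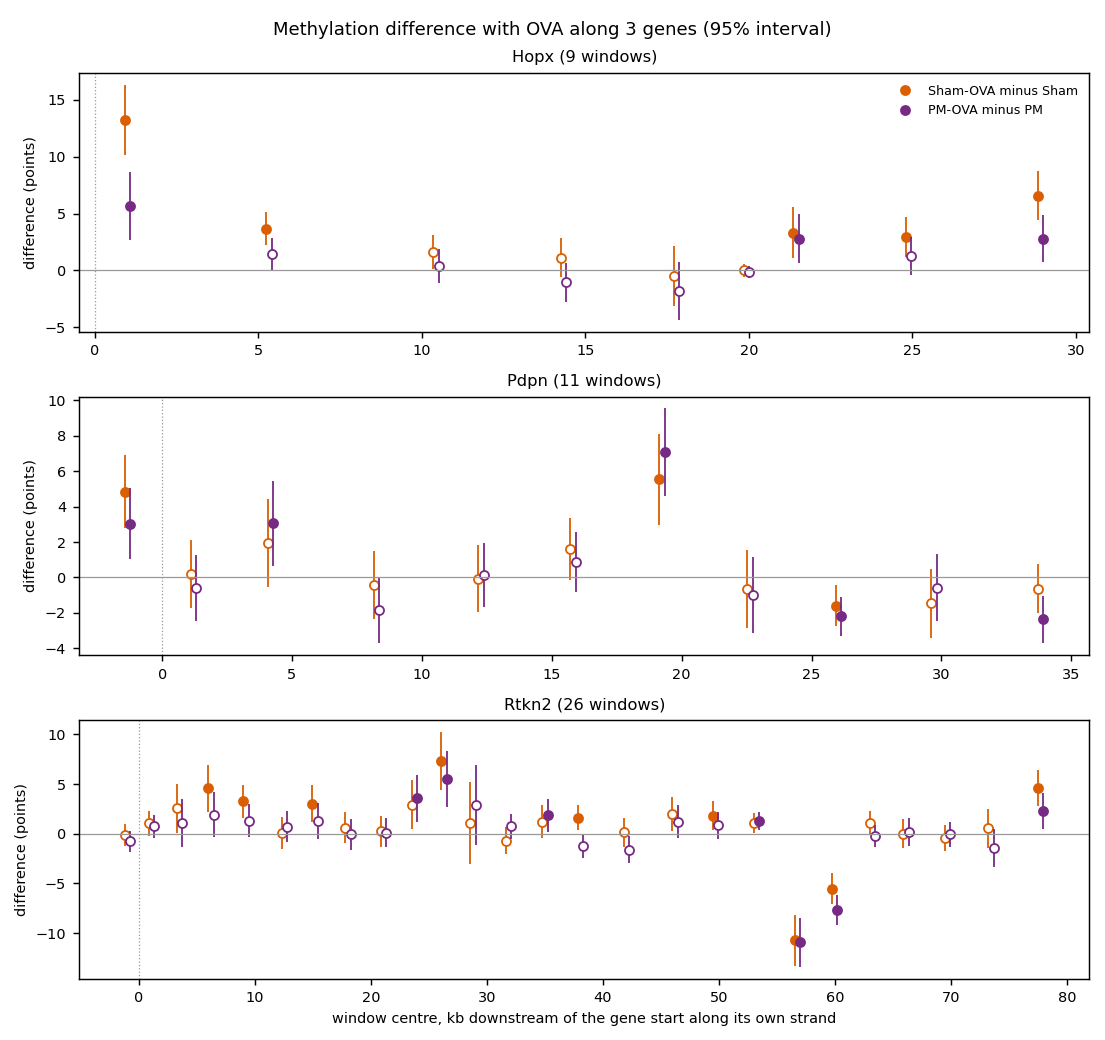
Difference in methylation with OVA (percentage points, y axis) against the distance of the window's centre from the gene start along its own strand (kb, x axis) for Hopx, Pdpn and Rtkn2, with Sham-OVA minus Sham in orange and PM-OVA minus PM in purple. Bars are 95% intervals of the difference and filled points have an adjusted p below 0.05. The highest Hopx points are at the gene start, and the 2 lowest Rtkn2 points are next to each other near 57 and 60 kb.

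Rtkn2, which encodes rhotekin 2, held the only members that lost more than 5 points of methylation in either comparison. The losses were in 2 adjacent windows inside the gene, with further Rtkn2 windows on both sides. The first, chr10:68034900-68037751, is 2689 bases of intron and 163 bases of coding exon and is centred 56.8 kb beyond the gene start. Its lowest, median and highest values were 72.1%, 72.9% and 73.6% in Sham and 59.1%, 61.8% and 67.7% in Sham-OVA. In PM they were 68.1%, 72.5% and 74.6%, and in PM-OVA 57.1%, 61.1% and 66.3%. Neither pair of groups overlapped.

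The mean of this window fell from 72.8% ± 0.585 to 62.1% ± 2.71 in Sham offspring (SD, n = 7 and 7) and from 72.3% ± 2.07 to 61.4% ± 3.31 in PM offspring (SD, n = 7 and 8). The differences were -10.7 points (95% interval -13.3 to -8.17, limma adjusted p = 2.18e-07) and -10.9 points (95% interval -13.4 to -8.43, limma adjusted p = 6.98e-08). It was a DMR in both comparisons. With each library centred the differences were -10.3 and -9.92 points, so that the DMR call in PM offspring was lost on its size and not on its adjusted p (5.79e-07, limma). The interaction was -0.18 points (95% interval -3.74 to 3.38). Without Sham replicate 1 the difference in Sham offspring was -10.6 points here and -5.79 points in the adjoining window.

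The next window, chr10:68037752-68041336, with 3477 bases of intron and 108 bases of coding exon, had the smallest p of all members over both OVA comparisons. That p came from PM offspring, and in Sham offspring other members had smaller ones. Sham libraries read 68.1% to 71.0% (median 69.8%) and Sham-OVA libraries 62.1% to 68.0% (median 62.9%). PM libraries read 67.2% to 70.3% (median 69.7%) and PM-OVA libraries 60.1% to 63.0% (median 61.2%). Every OVA library lay below every control library of the same maternal group. The differences were -5.54 points (limma adjusted p = 7.23e-06) and -7.69 points (limma adjusted p = 3.31e-08). PM-OVA was 2.61 points lower than Sham-OVA (95% interval -4.12 to -1.11, unadjusted p = 0.00349, limma adjusted p = 0.816), which did not pass.

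No other window of Rtkn2 passed with a loss. In Sham offspring 7 of its 26 windows rose and 2 fell, and in PM offspring 5 rose and 2 fell, the falling windows being the adjacent pair in both. The shares of all windows were 13.3% higher and 22.3% lower in Sham, and 9.26% and 34.8% in PM offspring. The largest rise, chosen after the values were seen, was in chr10:68004779-68006994, centred 26.3 kb beyond the start, at 7.34 points in Sham (limma adjusted p = 0.000214) and 5.53 points in PM offspring (limma adjusted p = 0.00194). The window over the gene start, chr10:67977478-67979743, had group means between 24.4% and 25.1%, and its differences with OVA were -0.12 and -0.76 points (limma adjusted p = 0.897 and 0.276). A window over a downstream transcript start, chr10:68041383-68044233, directly beyond the losses, differed by 1.13 points in Sham (limma adjusted p = 0.137) and -0.22 points in PM offspring (limma adjusted p = 0.799). The mean over all 26 windows hid the losses, at 71.1% ± 0.341 in Sham, 72.0% ± 0.696 in Sham-OVA, 71.5% ± 0.277 in PM and 71.6% ± 0.421 in PM-OVA (SD).

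**Figure D3:**
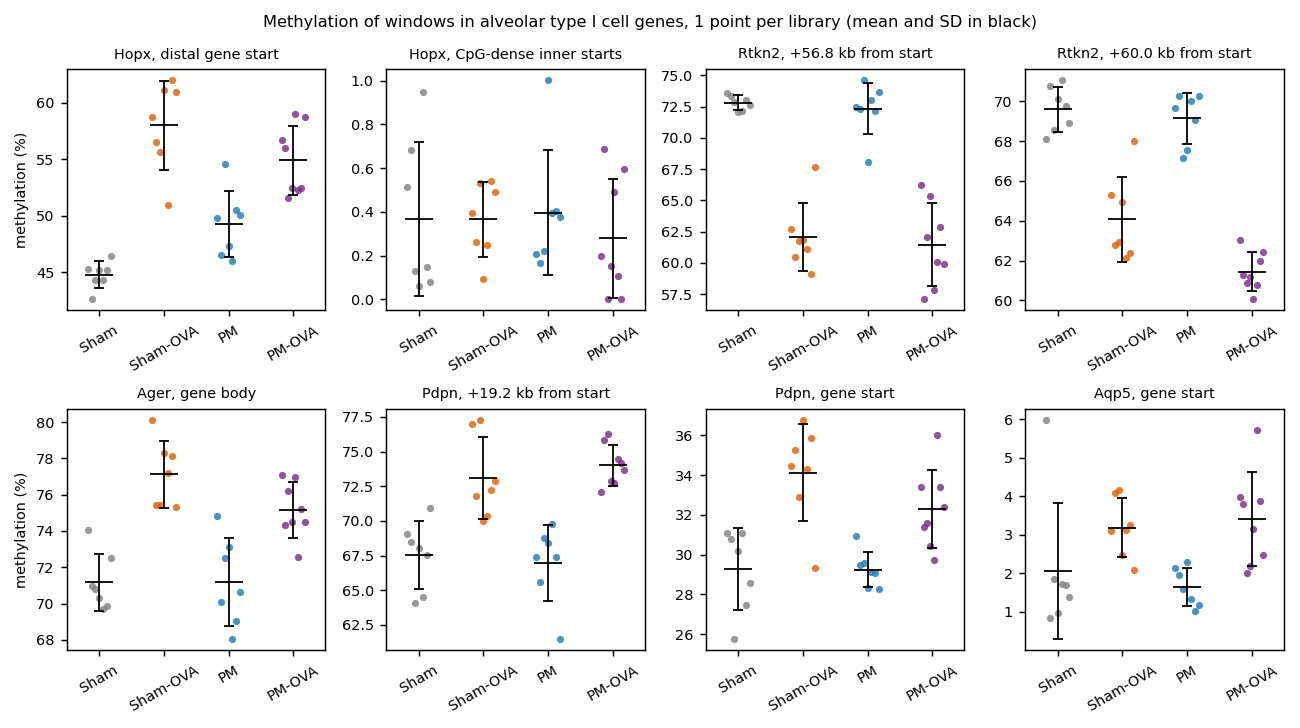
Percent methylation (y axis, a scale of its own in each panel) of 8 member windows by group, with 1 point per library, the mean as a black line and the SD as bars. The distal Hopx start, Ager and the Pdpn windows were higher with OVA, both Rtkn2 windows were lower, and the CpG-dense Hopx window stayed near 0 in all groups.

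Ager, the receptor for advanced glycation end products at the AT1 cell surface, had 1 window, chr17:34599402-34602112, over the downstream end of the gene and beyond it. Of its 2711 bases 1535 lie in Ager, and it also overlaps Rnf5 and Gm20463, so to which gene its change belongs cannot be told apart. Sham libraries ranged from 69.7% to 74.0% (median 70.8%) and Sham-OVA libraries from 75.3% to 80.1% (median 77.2%). PM libraries ranged from 68.0% to 74.8% (median 70.7%) and PM-OVA libraries from 72.6% to 77.1% (median 74.8%). The Sham groups did not overlap and the PM groups did. The window rose by 5.95 points in Sham (95% interval 3.97 to 7.93, limma adjusted p = 2.91e-05) and by 3.98 points in PM offspring (95% interval 2.07 to 5.89, limma adjusted p = 0.00165). Without Sham replicate 1 the rise in Sham offspring was 6.43 points.

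The start of Ager lies in a window that the table names for its neighbour Pbx2, chr17:34595762-34599401, and that is no member. It too was higher with OVA, at 47.3% ± 2.14 in Sham and 56.6% ± 4.63 in Sham-OVA (limma adjusted p = 4.49e-05), and 48.8% ± 2.39 in PM and 55.7% ± 2.52 in PM-OVA (limma adjusted p = 0.000679, SD). That window holds sequence of both genes, and to which of them its change belongs cannot be told apart.

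Pdpn, podoplanin, a mucin-type glycoprotein of the cell surface, had both gains and losses. Its window with the smallest p was chr4:143278644-143282007, all intron and 19.2 kb beyond the start. Lowest, median and highest values were 64.1%, 68.0% and 70.9% in Sham and 70.0%, 72.3% and 77.3% in Sham-OVA. They were 61.5%, 67.4% and 69.8% in PM and 72.1%, 73.9% and 76.3% in PM-OVA, and only the PM groups were without overlap. The rises were 5.55 points (limma adjusted p = 0.00108), or 5.81 without Sham replicate 1, and 7.06 points (limma adjusted p = 4.31e-05).

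The Pdpn gene start had different values in its 2 windows. The upstream window, chr4:143299514-143302268, which holds 2000 bases of promoter, was at 29.3% ± 2.07 in Sham and 34.1% ± 2.44 in Sham-OVA, a rise of 4.85 points (limma adjusted p = 0.000637), or 5.15 without Sham replicate 1. In PM offspring it rose from 29.3% ± 0.899 to 32.3% ± 1.98 (SD), by 3.04 points (limma adjusted p = 0.015). The next window, chr4:143297209-143299513, which holds the first coding exon and a transcript start, was at 23.8%, 24.0%, 24.1% and 23.5% in Sham, Sham-OVA, PM and PM-OVA, with differences of 0.20 points (limma adjusted p = 0.906) and -0.58 points (limma adjusted p = 0.606). Over the 11 Pdpn windows 2 rose and 1 fell in Sham offspring, and 3 rose and 2 fell in PM offspring, too few to be read against the 13.3% and 9.26% of all windows that rose. The falls were small, between -1.58 and -2.37 points, in windows of the 3′ part of the gene that were over 80% methylated.

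Aqp5, the water channel aquaporin 5, had the 2 most CpG-dense windows of the members, with 12.4 and 17.9 CpG sites per 100 bases at the gene start, and both were almost unmethylated. The window chr15:99590549-99590950 was between 0.832% and 5.97% in Sham (median 1.69%), 2.10% and 4.15% in Sham-OVA (median 3.12%), 1.02% and 2.30% in PM (median 1.59%), and 2.02% and 5.72% in PM-OVA (median 3.47%). Sham replicate 1 was the highest Sham library at 5.97%, and the next was 1.85%. Means were 2.06% ± 1.77 in Sham, 3.18% ± 0.761 in Sham-OVA, 1.64% ± 0.493 in PM and 3.40% ± 1.22 in PM-OVA (SD). The rise in PM offspring was 1.76 points (limma adjusted p = 0.00543). In Sham offspring it was 1.12 points (limma adjusted p = 0.0336) with all libraries and 1.77 points (limma adjusted p = 0.000413) without Sham replicate 1. The Sham call was lost on the percent scale without the log ratio (limma adjusted p = 0.167), and without Sham replicate 2 (limma adjusted p = 0.0856).

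The adjoining Aqp5 window, chr15:99590951-99591229, was at 3.18% ± 1.24 in Sham and 4.50% ± 0.697 in Sham-OVA (limma adjusted p = 0.0455), and at 3.83% ± 1.32 in PM and 4.17% ± 1.24 in PM-OVA (limma adjusted p = 0.626, SD). Its call in Sham offspring was lost on the percent scale (limma adjusted p = 0.098), and the adjusted p ran from 0.00793 without Sham replicate 1 (1.75 points) to 0.107 without Sham replicate 7. The third Aqp5 window, over the first coding exon, stood at 57.4% in Sham and differed by 1.70 and -0.24 points with OVA (limma adjusted p = 0.128 and 0.837). Methylation of Aqp5 therefore changed from under 5% to over 50% within about 2 kb of its start in all 4 groups.

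Cav1 and Cav2 encode the caveolins, the membrane proteins that form caveolae. They are neighbours on chromosome 6, and every window over them is named for Gm15581 in the table, so these values describe the locus and not the 51 members. Of the 7 windows over the body of Cav1 6 rose and none fell in each OVA comparison, and of the 3 over Cav2 3 rose in Sham and 2 in PM offspring, where 13.3% and 9.26% of all windows rose. Without Sham replicate 1 the window over the Cav1 start, chr6:17304961-17307005, no longer passed in Sham offspring (limma adjusted p = 0.0517). The mean of the Cav1 windows was 47.3% ± 0.918 in Sham and 51.6% ± 1.29 in Sham-OVA, and 47.3% ± 1.70 in PM and 51.3% ± 1.10 in PM-OVA (SD). Sham-OVA libraries (49.8% to 53.4%) all lay above Sham libraries (46.1% to 48.6%), and PM-OVA libraries (50.0% to 53.0%) all lay above PM libraries (44.5% to 49.9%). For Cav2 the mean of 3 windows was 45.0% ± 1.11 in Sham, 49.3% ± 1.39 in Sham-OVA, 45.2% ± 1.66 in PM and 48.0% ± 0.939 in PM-OVA (SD).

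The Cav1 window chr6:17307006-17309908, which covers further transcript starts of the gene and the intron sequence shown above, was little methylated without OVA. Its lowest, median and highest values were 7.16%, 8.85% and 9.62% in Sham and 10.7%, 15.4% and 18.5% in Sham-OVA. The rise was 6.23 points in Sham (95% interval 4.25 to 8.21, limma adjusted p = 9.97e-06) and 3.73 points in PM offspring, from 8.90% ± 2.02 to 12.6% ± 0.99 (SD, limma adjusted p = 0.0005). The next window, chr6:17309909-17316795, which is all intron, rose by 9.73 points in Sham (limma adjusted p = 8.24e-06) and by 8.08 points in PM offspring (limma adjusted p = 4.03e-05). The window upstream of Cav1, chr6:17297944-17304960, went the other way and fell by 2.26 points (limma adjusted p = 0.00379) and by 3.83 points (limma adjusted p = 5.23e-06). These Cav1 windows were chosen after their values were seen.

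**Figure D4:**
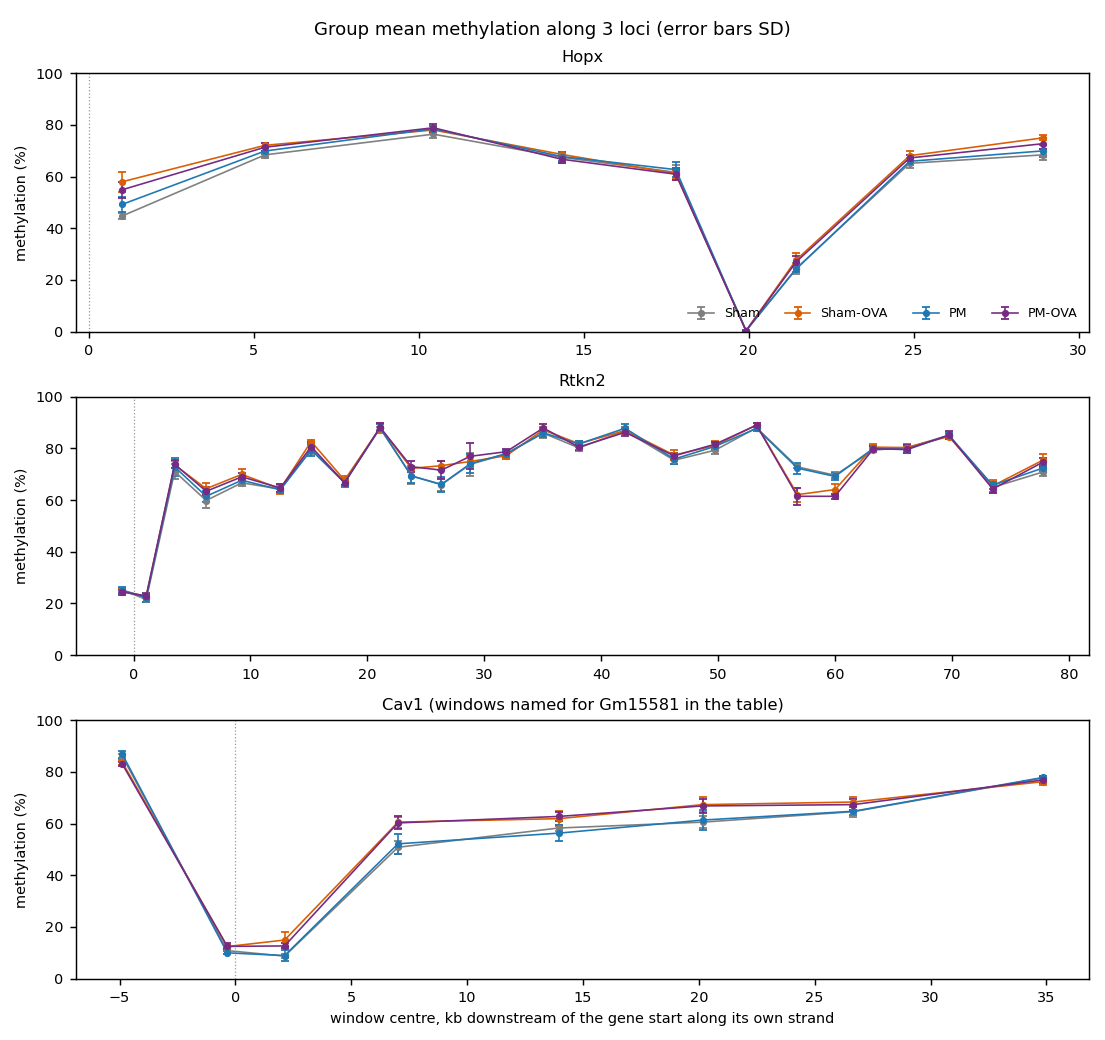
Group means of percent methylation (y axis) against the distance of the window's centre from the gene start along its own strand (kb, x axis) for Hopx, Rtkn2 and Cav1, with error bars of 1 SD over 7 or 8 libraries. The Hopx trough near 20 kb is the CpG-dense window, and the 2 Rtkn2 windows near 57 and 60 kb are those where the OVA groups lie below the others.

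No member passed the test for PM against Sham without OVA, for PM-OVA against Sham-OVA or for the interaction (limma adjusted p), and 0% of all windows passed in each. An unadjusted limma p below 0.05 was found in 6 members (11.8%) for PM against Sham, where 5.79% of all windows had one, in 9 (17.6%) for PM-OVA against Sham-OVA, where 5.96% had one, and in 4 (7.84%) for the interaction, where 7.4% had one. Without Sham replicate 1 there were 7 for PM against Sham. As a description, the mean of the Aqp5 windows was 30.8% ± 0.457 in Sham and 32.0% ± 0.581 in PM, and that of the Hopx windows 53.0% ± 0.764 and 54.3% ± 0.472 (SD, n = 7 and 7). The libraries of the 2 groups overlapped for both genes. The smallest adjusted p among members was 0.813, 0.816 and 0.551. The interaction was negative in 38 of the 51 windows (74.5%), near the 71.6% of all windows, with a median of -0.98 points against -0.59 over all windows. A p that misses the threshold does not show that maternal groups were alike, and intervals as wide as those of the distal Hopx start leave room for several points.

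By gene, mean methylation in Sham ordered the members as Aqp5 (30.8% ± 0.457 over 4 windows), Hopx (53.0% ± 0.764 over 9), Pdpn (65.1% ± 1.02 over 11), Rtkn2 (71.1% ± 0.341 over 26) and Ager (71.2% ± 1.58 for its 1 window). Rtkn2 and Ager did not differ beyond their spread, and the other neighbours in this order were without overlap between libraries. Across the members, windows with more CpG sites per 100 bases were less methylated (Spearman correlation -0.47 across the 51 windows, which are not independent). The members were shorter and more CpG-rich than the table as a whole, with a median of 1.58 CpG sites per 100 bases against 1.05 and a median methylation of 70.5% against 76.4%. By the mean over all 29 libraries, 3 members (5.88%) were under 5% methylated against 5.81% of all windows, and 7 (13.7%) were under 30% against 9.96%. Of the 7, 3 rose and none fell in Sham offspring, and 2 rose and none fell in PM offspring, so that every loss was in a window at 30% or more. The upstream Pdpn window, at 29.3% in Sham and 34.1% in Sham-OVA, is not among the 7 by that mean, and it rose in both comparisons. Exon sequence was present in 30 members and 21 lay in introns alone.

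Other gene lists put the members in context, and were drawn up with earlier results known. Of 26 further AT1 genes 24 had windows, 419 in all. In Sham offspring 88 rose and 87 fell (21.0% and 20.8%, against 13.3% and 22.3% of all windows). In PM offspring 51 rose and 148 fell (12.2% and 35.3%, against 9.26% and 34.8%). The median differences were -0.03 and -0.98 points, against -0.41 and -1.03 points over all windows. Gains and losses were thus about level in Sham offspring. In PM offspring losses were the more frequent, near the shares of all windows. The difference from the members was not tested. Single windows rose too, by 12.1 and 11.0 points in Clic5, a chloride channel protein (45.3% ± 2.49 in Sham, limma adjusted p = 8.68e-06 and 1.53e-05), by 11.7 and 10.2 points in Wwtr1, a cofactor of TEAD transcription factors (limma adjusted p = 2.39e-06 and 6.88e-06), and by 9.69 and 5.00 points in the membrane protein gene Emp2 (limma adjusted p = 1.03e-05 and 0.00578). The paper's cell-type lists place Clic5 among endothelial genes.

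Genes of the caveolar coat, which includes the Cav1 and Cav2 partners, had more gains than losses. Of 46 windows in 6 genes 21 rose and 9 fell in Sham offspring (45.7% and 19.6%, against 13.3% and 22.3% of all windows), and 22 rose and 8 fell in PM offspring (47.8% and 17.4%, against 9.26% and 34.8%). The median differences were 1.53 and 1.73 points. Cavin1, which coats caveolae, had a window that rose from 42.4% ± 3.34 to 59.4% ± 5.84 in Sham and from 42.1% ± 5.16 to 55.9% ± 3.87 in PM offspring (SD, limma adjusted p = 3.04e-06 and 2.62e-05). Windows of Ehd2 rose by 7.76 and 6.12 points and of Pacsin2 by 6.80 and 6.36 points.

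Markers of other cells moved too, in a table where 13.3% of all windows rose and 22.3% fell in Sham, and 9.26% and 34.8% in PM offspring. The list of alveolar type II cell genes, the surfactant-producing neighbours of AT1 cells, had 24 of 75 windows higher and 3 lower in Sham (32% and 4%, or 18 and 3 windows without Sham replicate 1), and 16 higher and 6 lower in PM offspring (21.3% and 8%). Etv5, a transcription factor gene, held a window that rose by 11.8 and 9.23 points, Abca3, a lipid transporter gene, one that rose by 7.72 and 4.80 points, and Napsa, which encodes a protease, one that differed by -4.11 and -6.88 points. The endothelial list had 52 of 153 windows higher and 26 lower in Sham (34% and 17%), and 46 higher and 39 lower in PM offspring (30.1% and 25.5%). Egfl7 rose by 14.2 and 15.3 points and Cdh5 by 11.1 and 9.59 points in their most changed windows, whereas a window of Pecam1, an adhesion molecule gene, changed by -18.0 and -15.9 points.

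The leucocyte list had more losses than gains, as all windows did. In Sham offspring 33 of its 141 windows were higher and 56 lower (23.4% and 39.7%, against 13.3% and 22.3% of all windows), and in PM offspring 24 were higher and 64 lower (17% and 45.4%, against 9.26% and 34.8%). Of these, 17 and 16 windows were DMRs with lower methylation. The mean over the list was between 69.9% and 70.8% in Sham libraries and between 67.7% and 69.2% in Sham-OVA libraries, and between 70.1% and 71.1% in PM and 67.9% and 68.7% in PM-OVA libraries, with no overlap. Windows of Ptprc, Lcp1 and Laptm5, which are expressed across blood cells, changed by -19.1, -17.9 and -18.5 points in Sham offspring. The mean over the 51 AT1 gene windows was 63.0% to 64.2% in Sham and 63.9% to 65.7% in Sham-OVA, 63.7% to 64.3% in PM and 63.8% to 64.9% in PM-OVA. The part of a changed share of leucocytes in the gains and losses at the AT1 genes was not tested.

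**Figure D5:**
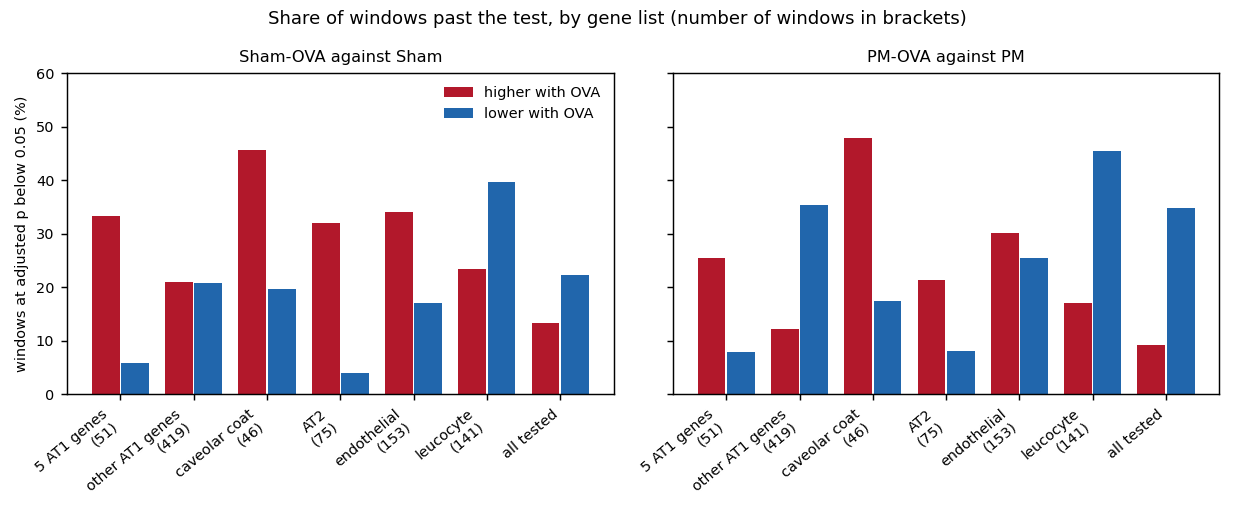
Share of tested windows (y axis, %) with an adjusted p below 0.05 that were higher (red) or lower (blue) with OVA, for the 51 AT1 gene windows, 5 other gene lists and all windows, in offspring of Sham dams (left) and PM dams (right). The AT1 gene windows show 33.3% higher and 5.88% lower on the left. The alveolar type II, endothelial and caveolar coat lists also have more gains than losses, whereas the leucocyte list and all windows have more losses.

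The windows most like the Rtkn2 window from 68037752, which had the smallest p of any member over both OVA comparisons, were also sought, by Pearson correlation of percent methylation over the 29 libraries. A window of Ccdc192 had a correlation of 0.958, one of Creb5 0.949 and one of Pcsk5 0.946, and 767 of 258452 windows reached 0.9. In all 3 the Sham and PM means were above the Sham-OVA and PM-OVA means, and the 29 libraries share the 4 groups, so that the correlation restates the group difference.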

How the data were processed

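WGMS values were examined for 29 libraries of 4 groups, taken from the labels. The authors converted DNA enzymatically with an unmethylated lambda spike. Read trimming used Trim Galore, alignment to GRCm38 and methylation calling used the DRAGEN pipeline, and windows overlapping an Ensembl gene were summarised in SeqMonk. What the authors deposited is percent methylation, 1 value per window and library, with neither counts nor coverage, so precision rests on the number of libraries. In the study's own test library size was a covariate, and the deposited percentages were used here as they stand.

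Windows with at least 3 values in every group were kept (259167 of 260686). The percent was transformed as log2((percent + 1)/(101 - percent)), with an offset of 1 point, and fitted with limma 3.58.1 in R 4.3.3 as 4 group means, with Benjamini-Hochberg adjustment over all windows tested. This differs from the study's count-based test, which needs counts. Intervals of differences come from the same model on the percent scale. In a simulation of Sham-OVA against Sham over 259167 windows, 198 of 200 changed windows were called DMRs and no unchanged window was. That result covers DMR calls only. How often differences below the DMR minimum are found, or called falsely at the adjusted p alone, cannot be read from it. Positions, exons and starts were taken from GENCODE M21 and RefSeq on GRCm38, and promoters were 2000 bases upstream.

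Windows described were, for each gene, that with the smallest p, all over an annotated start, and all DMRs. For each further list at most 3 genes were named by the largest difference among windows past the test. The members and lists were chosen with earlier results of these data known. Alternatives tried were centring of libraries, the percent scale, another offset, other filters and thresholds, only the groups compared, a replicate block and leaving out each library. Replicates are separate libraries of a group. Where they share a litter, p-values measure only the spread between these libraries. No libraries were identical (correlation within groups 0.992 to 0.997).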

Additional observations from a re-analysis of the deposited data

Results flagged for a closer look

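Of 52 sets of libraries (a described window in a group) tested for a value far from the rest by Dixon's ratio, 6 had one, and chance gives about 1 in 20. Sham replicate 1 was highest in both CpG-dense Aqp5 windows, at 5.97% (next 1.85%) in the window from 99590549 and 5.73% (next 3.45%) in that from 99590951, and is the library with values in 1224 of 1230 Y-chromosome windows. Sham-OVA replicate 5 was highest in the latter Aqp5 window at 5.90% (next 4.76%). In the CpG-dense Hopx window PM replicate 4 was highest at 1.00% (next 0.405%). In the Rtkn2 window from 68034900 Sham-OVA replicate 7 was highest at 67.7% (next 62.7%), and PM replicate 4 was lowest at 68.1% (next 72.2%). The differences of that Rtkn2 window stayed between -11.7 and -10.2 points when any single library was left out.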

How the results depend on the processing

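Under centring of each library 27 member windows passed in PM offspring in place of 17, the DMRs there numbered 0 in place of 1, and the median difference was 1.69 points in place of 0.71. At an adjusted p of 1e-06, 2 windows passed in each OVA comparison, 1 higher and 1 lower in Sham and 0 higher and 2 lower in PM offspring, so that gains no longer outnumbered losses, and with a minimum difference of 5 points the DMRs numbered 7 in Sham and 5 in PM offspring. With the windows over Cav1, Cav2 and the Ager start added, an alternative chosen after seeing the data, the median in Sham was 1.61 points. Leaving out single libraries gave 16 to 22 windows in Sham and 11 to 18 in PM offspring, the lowest without PM replicate 2, and medians of 1.11 to 1.38 and 0.394 to 0.823 points, with 2 and 1 DMRs throughout. Replicate numbers did not pair the libraries (mean correlation of deviations 0.0169 over 42 pairs, 9 of 29 libraries closest to their own number), and the replicate block gave 19 and 16 windows, 2 and 1 DMRs and medians of 1.13 and 0.545 points. Windows that did not pass changed sign under centring, to 0.402 points in Pdpn (143297209, PM), 0.395 and 0.862 in Hopx (77094895), 0.276 and 0.215 in Rtkn2 (67977478), 0.762 in Rtkn2 (68041383, PM) and 0.735 in Aqp5 (99591230, PM), the last 0.0956 without the PM-OVA libraries named Rel. Under centring Rtkn2 (68041383) and Aqp5 (99591230) passed in Sham, at 1.53 and 2.09 points (limma adjusted p = 0.0332 and 0.0294). Leaving out libraries, differences ran from -0.138 to 0.561 (Sham) and -0.975 to 0.0793 (PM) in Pdpn, -0.0515 to 0.0961 in Hopx (Sham), -0.309 to 0.145 in Rtkn2 67977478 (Sham), -0.512 to 0.0328 in Rtkn2 68041383 (PM) and -0.51 to 0.0994 in Aqp5 99591230 (PM). Calls at the Aqp5 start in Sham offspring were lost in 18 fits without a library, with an offset of 5 points (limma adjusted p = 0.0642 and 0.0519), with only the groups compared (0.0681, window from 99590549) and without the Rel libraries (0.0534, window from 99590951). The maternal and interaction counts were 0 in all fits run, and the interaction has no fit on fewer groups. Centring took a shift of -0.40 points out of every difference in Sham offspring and of -0.98 points in PM offspring. The sign changes under centring follow from that shift. The cause of the other changes was not tested. The unknown depth of each window limits single values, most of all in windows under 5%.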
